A study of Mus musculus with 16 samples.

Results

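The genes described here are those of the mouse major histocompatibility complex (MHC) and of antigen presentation. They were chosen by symbol: every feature whose symbol begins with H2-, together with B2m, Cd74, Ciita, Tap1, Tap2, Tapbp and Nlrc5. This rule found 50 genes among the 36829 features in the files, 35 of them class I genes, 12 class II genes and 3 of neither class. By the GENCODE M21 annotation 45 of the 49 that it lists lie on chromosome 17, and the other 4 are B2m, Cd74, Ciita and Nlrc5. RNA of femoral cortical bone was sequenced from female C57Bl/6 mice of 11 weeks. The 8 HLU mice had their hindlimbs unloaded by tail harness for 7 days, and the 8 Control mice bore weight normally, with 1 library for each mouse. Apart from the unloading the groups share strain, sex and age, and the bone ends had been cut off and the marrow flushed out before the RNA was taken.

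MHC class I molecules sit on nearly all nucleated cells and show peptides from inside the cell to CD8+ T cells. Each is a heavy chain, encoded by an H2-K, H2-D, H2-Q, H2-T or H2-M gene, held by the light chain B2m, and it is loaded with peptides that Tap1 and Tap2 pump into the endoplasmic reticulum. MHC class II molecules pair an alpha and a beta chain and show peptides from outside the cell to CD4+ T cells, mainly on B cells, dendritic cells and macrophages. Nlrc5 switches on class I genes, Ciita switches on class II genes, and interferon gamma raises both. Bone holds both kinds of source, since osteocytes and osteoblasts carry class I and the marrow cells left in vessels and cavities carry both.

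The values are RPKM, read counts scaled to gene length and library size. Of the 50 genes 36 reached a mean of 0.5 RPKM over the 16 mice and were tested. The 14 below it were H2-Ea-ps, H2-M1, H2-M2, H2-M5, H2-M6-ps, H2-M10.1 to H2-M10.6, H2-M11, H2-Q3 and H2-T3, and none passed 1 RPKM in any mouse. Their highest values were 0.886 RPKM (15 reads) for H2-M10.2, 0.844 for H2-M11, 0.79999 for H2-Q3, 0.408 for H2-M2, 0.318 for H2-M6-ps, 0.189 for H2-T3, 0.179 for H2-M10.4, 0.167 for H2-M5, 0.137 for H2-M10.6, 0.124 for H2-M1, 0.0893 for H2-M10.3, 0.0862 for H2-Ea-ps, 0.0861 for H2-M10.1 and 0.0464 for H2-M10.5. H2-Ea-ps, the class II alpha chain that C57BL/6 mice are known not to express, had 4 reads over all 16 libraries. The libraries held between 7067512 reads (Control 2) and 21363584 reads (HLU 6), by the divisors recovered from the RPKM values.

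Groups were compared with limma on log2(RPKM + 0.1), with p-values adjusted over all 16973 features kept. A gene was called when its unadjusted p was under 0.05 and its change at least 1.2-fold. In HLU bone 5 of the 36 genes were called lower (13.9%), against 4.76% of all features, and none was called higher, against 1.11% of all features. They were H2-T24, H2-M3, Tap1 and Nlrc5 of class I and H2-Ab1 of class II. At an adjusted p under 0.1 the share called was 0% of all features and no member was called, the lowest adjusted p by limma with Benjamini-Hochberg adjustment among members being 0.744. At an unadjusted p under 0.05 alone 6 members were counted, the 5 called and Tapbp. In these bulk libraries fewer cells of a type and less RNA per cell cannot be told apart, and the p-values measure the spread between mice.

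The fold changes of the members lay mostly on one side. Of the 36 tested, 34 were below 0, 21 of 22 in class I and 11 of 11 in class II, where 67.9% of all features were below 0. The median log2 fold change was -0.30 for class I and -0.29 for class II, against -0.10 for all features. Quantile normalization moved the median of all features from -0.10 to 0.00 and median-of-ratios rescaling to -0.01, and the class I and class II medians then lay at -0.21 and -0.16 under the first and at -0.21 and -0.19 under the second. The 3 genes of neither class had a median of -0.03. The classes are made of overlapping families measured in the same mice, so their genes are not independent replicates.

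**Figure D1:**
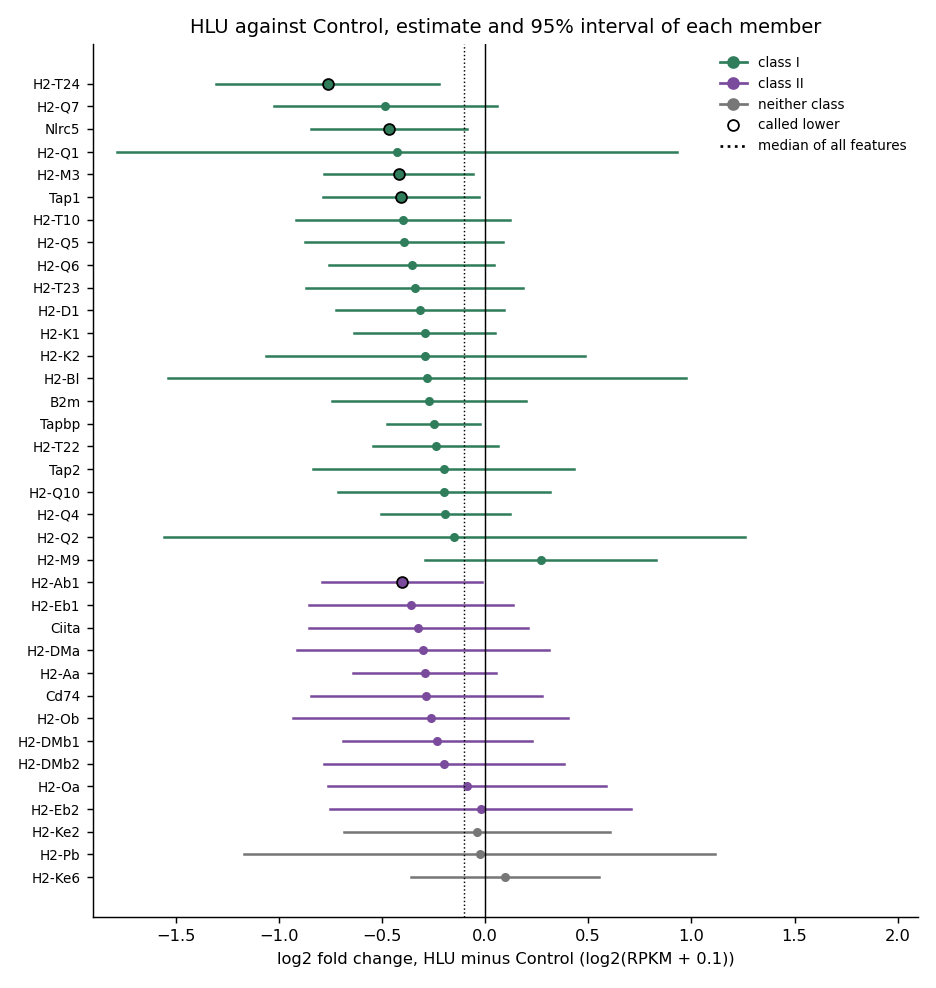
Log2 fold change of HLU against Control (horizontal axis, on log2(RPKM + 0.1)) for the 36 genes tested, as the limma estimate with its 95% interval, coloured by class, with the 5 called genes outlined in black and the median of all features dotted. The estimates run from -0.76 for H2-T24 to 0.27 for H2-M9, and the intervals of most genes include 0.

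Single mice weighed on these counts. Control 7 was the highest of the 16 mice for 17 of 22 class I and 9 of 11 class II genes, and HLU 4 was the lowest for 14 of 22 and 7 of 11. Control 7 also had the highest median deviation over T cell (1.101 on the log2 scale), erythroid (1.11) and macrophage markers (0.57). It was not the highest over B cell, dendritic cell or neutrophil markers, where Control 4, Control 1 and HLU 2 were. HLU 4 was the lowest over macrophage (-1.095) and osteoblast markers (-0.67). The lowest over B cell (-1.18), T cell (-1.02), dendritic cell (-0.85), neutrophil (-0.92) and erythroid markers (-1.02) was HLU 7, whose class I median deviation was -0.21. Without these 2 mice 1 member, H2-T24, was called lower, against 2.78% of all features, 23 of 36 members were below 0 against 59.8% of all features, and the medians were -0.12 for class I, -0.09 for class II and -0.06 for all features. Leaving out 1 mouse gave 10 members called lower without Control 1 and 11 without Control 2, against 5.44% and 4.42% of all features. It gave 3 without Control 7 (3.02% of all features), Control 8 (3.58%), HLU 1 (2.88%), HLU 6 (3.23%), HLU 7 (2.78%) or HLU 8 (6.81%), and 2 without HLU 4 (3.80%).

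The classical class I heavy chains H2-K1 and H2-D1, which present peptides to most CD8+ T cells, took most of the class I heavy chain reads, between 61.7% and 68.5% in the 16 mice. H2-K1 ranged from 32.2 to 70.7 RPKM in Control mice (median 43.3) and from 26.8 to 45.7 RPKM in HLU mice (median 37.8). H2-D1 ranged from 65.3 to 181 RPKM in Control mice (median 107) and from 53.9 to 102 RPKM in HLU mice (median 86.9). The groups overlapped for both genes, with 3 Control mice above every HLU mouse for H2-K1 and 4 for H2-D1. The mean of H2-K1 was 47.3 ± 13.2 RPKM (SD, n = 8) in Control and 37.8 ± 6.11 RPKM (SD, n = 8) in HLU mice, which is -0.29 on the log2 scale (SE 0.16) with an exact permutation p of 0.098. That of H2-D1 was 111 ± 37.6 RPKM and 86.0 ± 14.5 RPKM, a log2 fold change of -0.31 (SE 0.19) with an exact permutation p of 0.139. Neither change was larger than the spread between mice at the threshold used. The gene length that the RPKM values imply is 8075 bases for H2-K1 and 4117 bases for H2-D1, so the level of H2-K1 below that of H2-D1 is in part set by the length used, and their total reads over all mice were 84351 and 99796.

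Promoters of class I heavy chains are known to hold a kappa B site, an interferon response site and, closer to the start, an element of X and Y boxes. RefSeq promoter windows of GRCm38.p6, from 250 bases before to 50 bases after the start, were at hand for 34 of the 50 members. Searched on both strands for the letters GGGANTCCC (kappa B), GAANNGAAA (interferon response) and CCAAT (Y box), the windows of H2-K1, H2-D1, H2-Q6 and H2-Q7 held all 3, as did 6 windows (0.0183%) of 32851 in all, 2 of them belonging to H2-K1. The letters of kappa B alone stood in 0.767% of all windows, those of the interferon response in 7.52% and CCAAT in 37.4%. The stretches from H2-K1 (chr17:34000334-34000467, minus strand), H2-D1 (chr17:35262914-35263049, plus), H2-Q6 (chr17:35424668-35424803, plus) and H2-Q7 (chr17:35439013-35439147, plus) are shown because these 4 were the members whose windows held all 3. Capitals mark, from left to right, the kappa B match, the interferon response match and 2 CCAAT matches, each on either strand. Whether each CCAAT match is a Y box was not tested.
H2-K1: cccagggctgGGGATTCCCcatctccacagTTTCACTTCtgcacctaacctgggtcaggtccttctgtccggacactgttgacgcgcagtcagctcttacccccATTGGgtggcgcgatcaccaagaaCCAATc
H2-D1: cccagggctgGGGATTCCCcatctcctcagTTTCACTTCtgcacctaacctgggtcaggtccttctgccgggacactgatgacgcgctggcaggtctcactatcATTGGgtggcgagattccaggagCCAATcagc
H2-Q6: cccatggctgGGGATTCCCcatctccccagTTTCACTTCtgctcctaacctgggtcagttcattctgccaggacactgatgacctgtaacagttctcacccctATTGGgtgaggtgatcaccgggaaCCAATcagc
H2-Q7: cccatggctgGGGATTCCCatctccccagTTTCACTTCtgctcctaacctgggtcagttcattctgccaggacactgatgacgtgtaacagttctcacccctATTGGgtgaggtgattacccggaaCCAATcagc

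In these 4 stretches the interferon response letters began 19 or 20 bases after the kappa B letters. The first CCAAT match began 73 or 74 bases after that. H2-K1 and H2-D1 were identical at 86.1% of aligned positions, and H2-Q6 and H2-Q7 at 97.1%. Across mice, after each group's mean was removed, Pearson's r between pairs of the 4 transcripts lay between 0.75 and 0.97 over the 6 pairs (n = 16, a description), a range that pairs with other members also reached, such as H2-D1 with H2-Eb1 (0.95).

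The H2-Q genes encode class I chains of narrower use, Qa-2 among them from H2-Q7. H2-Q4 averaged 17.2 ± 3.92 RPKM in Control and 14.9 ± 2.65 RPKM in HLU mice, H2-Q6 13.7 ± 4.66 and 10.2 ± 1.60 RPKM, H2-Q7 4.36 ± 1.99 and 2.87 ± 0.624 RPKM, and H2-Q10 3.91 ± 1.70 and 3.25 ± 0.820 RPKM (SD, n = 8 each). None was called, and the largest change among them, for H2-Q7, was -0.48 (SE 0.26) with an exact permutation p of 0.096. H2-Q5, a polymorphic pseudogene in the annotation, averaged 3.19 ± 1.15 and 2.36 ± 0.653 RPKM. H2-Q1 and H2-Q2 varied far more between mice than any of these: H2-Q1 from 0.196 RPKM (HLU 4) to 11.6 RPKM (Control 7) and H2-Q2 from 0.027 RPKM, a single read, to 5.36 RPKM in the same 2 mice. Their means were 4.94 ± 4.07 and 3.11 ± 1.63 RPKM for H2-Q1 and 1.84 ± 1.82 and 1.25 ± 0.559 RPKM for H2-Q2, with log2 fold changes of -0.43 (SE 0.64) and -0.15 (SE 0.67). H2-Bl, a polymorphic pseudogene in the annotation, was as spread, from 0.141 RPKM in Control 1 to 4.87 RPKM in Control 7, with means of 1.77 ± 1.62 and 1.09 ± 0.790 RPKM, and its r with H2-Q1 and H2-Q2 lay at 0.84 or above.

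Several of these genes are near copies of each other. In the GENCODE M21 transcripts the share of distinct 50-base words that another gene also holds was 36.4% for H2-Q5, 34.5% for H2-T22, 32.9% for H2-T10, 32% for H2-Q6 and 26.4% for H2-Q7. It was 9.63% for H2-K1 and 12.8% for H2-D1, and 11 of the 35 tested genes in that annotation shared no word. The split of reads among H2-Q genes and between H2-T10 and H2-T22 is therefore uncertain.

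H2-T24 showed the largest change of all members. It is a class I gene of the T region whose function is little known. It ranged from 15.2 to 41.5 RPKM in Control mice (median 24.4) and from 8.28 to 27.3 RPKM in HLU mice (median 13.2), and 5 of the 8 HLU mice lay below every Control mouse. The mean was 25.4 ± 8.21 RPKM in Control and 15.5 ± 6.96 RPKM in HLU mice, a log2 fold change of -0.76 (SE 0.26, limma p 0.0085, exact permutation p 0.018, adjusted p 0.744). It stayed called lower in all 30 alternative settings, with log2 fold changes from -0.90 to -0.40. It also moved with the makeup of the libraries, as described below. H2-T24 overlaps A930015D03Rik on the opposite strand, and the library kit does not mark strand, so reads of the 2 cannot be told apart where they overlap.

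H2-M3, which presents formylated peptides of bacteria and mitochondria, was the other heavy chain called. It ranged from 6.81 to 11.8 RPKM in Control mice (median 11.0) and from 5.27 to 11.2 RPKM in HLU mice (median 7.55), with 4 Control mice above every HLU mouse. The mean was 10.2 ± 2.06 RPKM in Control and 7.66 ± 2.00 RPKM in HLU mice, a log2 fold change of -0.42 (SE 0.17, exact permutation p 0.033, adjusted p 0.744). The call was lost without HLU 1 (limma p 0.056) or HLU 4 (limma p 0.055).

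H2-T23 encodes Qa-1, which holds peptides from other class I chains for receptors of natural killer cells, and it averaged 10.7 ± 4.72 RPKM in Control and 8.01 ± 1.88 RPKM in HLU mice. H2-T22 and H2-T10, known as ligands of some gamma delta T cells, averaged 5.58 ± 1.38 and 4.61 ± 0.461 RPKM, and 1.17 ± 0.508 and 0.842 ± 0.227 RPKM. H2-T10 is a polymorphic pseudogene in the annotation. The pseudogene H2-K2 averaged 3.44 ± 2.08 and 2.77 ± 1.37 RPKM. H2-M9 was the one class I gene above 0, at 2.098 ± 1.099 RPKM in Control and 2.38 ± 0.630 RPKM in HLU mice, a log2 fold change of 0.27 (SE 0.27, exact permutation p 0.349). None of these 5 was called.

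B2m, the light chain of all class I molecules and one of the reference genes of the study's NanoString assay, was the most abundant member. It ranged from 913 to 2273 RPKM in Control mice (median 1486) and from 792 to 1914 RPKM in HLU mice (median 1309), and the groups overlapped over most of that range. The mean was 1555 ± 434 RPKM in Control and 1300 ± 404 RPKM in HLU mice, a log2 fold change of -0.27 (SE 0.22, exact permutation p 0.238). The 95% interval of this change ran from -0.74 to 0.20 on the log2 scale.

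The peptide transporter gene Tap1 ranged from 2.48 to 5.28 RPKM in Control mice (median 3.46) and from 1.90 to 4.26 RPKM in HLU mice (median 2.40), and 4 HLU mice lay below every Control mouse. Its mean was 3.56 ± 0.813 RPKM in Control and 2.70 ± 0.855 RPKM in HLU mice, a log2 fold change of -0.41 (SE 0.18, exact permutation p 0.040, adjusted p 0.744). The call was lost without any one of Control 3, 6, 7 or 8 or HLU 1, 4, 6, 7 or 8, with limma p-values then up to 0.080. Tap1 shares its start region with Psmb9 on the opposite strand, which is not analysed here. Its partner Tap2 averaged 3.69 ± 1.67 and 3.19 ± 1.19 RPKM and was not called. Tapbp, or tapasin, which holds the empty class I molecule at the transporter, had the smallest ratio of highest to lowest mouse among the tested members (1.74), at 15.5 ± 1.60 RPKM in Control and 13.1 ± 2.08 RPKM in HLU mice. Its log2 fold change of -0.25 (SE 0.11) had an exact permutation p of 0.021 but stayed under 1.2-fold.

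Nlrc5, the transactivator of class I genes, ranged from 2.80 to 4.83 RPKM in Control mice (median 4.06) and from 1.82 to 4.22 RPKM in HLU mice (median 2.47). The groups overlapped, with 5 HLU mice below every Control mouse. Its mean was 3.92 ± 0.727 RPKM in Control and 2.88 ± 0.891 RPKM in HLU mice, a log2 fold change of -0.46 (SE 0.18, exact permutation p 0.025, adjusted p 0.744). This call held when any 1 mouse was left out and was lost without both Control 7 and HLU 4 (log2 fold change -0.41, limma p 0.058).

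**Figure D2:**
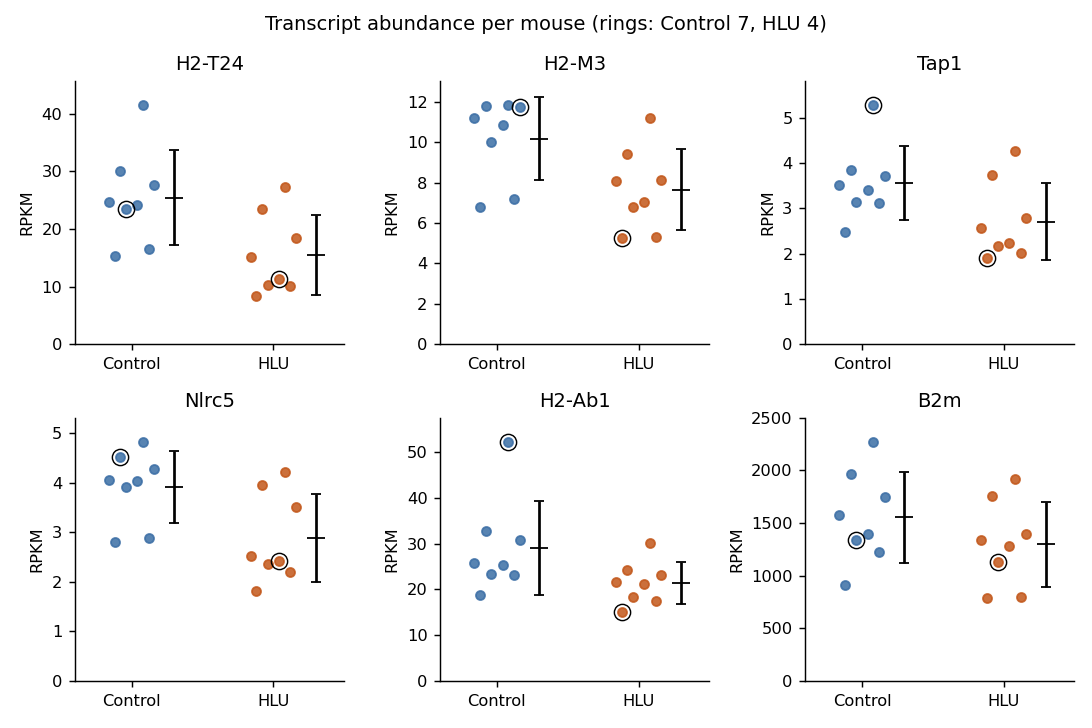
Transcript abundance in RPKM (vertical axis, from 0) of the 5 called genes and B2m in each of the 8 Control and 8 HLU mice, with the mean and SD of each group beside the points and rings around Control 7 and HLU 4. The groups overlap in every panel, and Control 7 stands above all other mice for Tap1 and H2-Ab1.

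The class II chains were led by the beta chain H2-Eb1 and the alpha chain H2-Aa, which with the beta chain H2-Ab1 made up 98.5% or more of the class II chain reads in every mouse. H2-Ab1 ranged from 18.9 to 52.3 RPKM in Control mice (median 25.5) and from 15.1 to 30.1 RPKM in HLU mice (median 21.4), with 3 HLU mice below every Control mouse. It was the one class II gene called: its mean was 29.1 ± 10.4 RPKM in Control and 21.4 ± 4.65 RPKM in HLU mice, a log2 fold change of -0.40 (SE 0.18, exact permutation p 0.045, adjusted p 0.744). The call was lost without any one of Control 3, 7 or 8 or HLU 4, 5, 6, 7 or 8, with limma p-values then up to 0.088.

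H2-Aa, the partner chain of H2-Ab1, ranged from 43.2 to 106 RPKM in Control mice (median 63.2) and from 45.3 to 65.1 RPKM in HLU mice (median 48.0). No HLU mouse lay below every Control mouse. Its mean was 66.16 ± 20.02 RPKM in Control and 52.5 ± 8.31 RPKM in HLU mice, a log2 fold change of -0.29 (SE 0.16, exact permutation p 0.096). H2-Eb1 ranged from 55.5 to 165 RPKM in Control mice (median 78.1) and from 37.6 to 88.9 RPKM in HLU mice (median 66.2), a log2 fold change of -0.36 (SE 0.24, exact permutation p 0.172), and its transcript was thus present at the level of H2-Aa in mice with almost no reads of its partner H2-Ea-ps. H2-Eb2, a minor beta chain, averaged 1.05 ± 0.515 and 0.963 ± 0.387 RPKM.

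Class II promoters are known for an X box and a Y box at a fixed distance. The CCAAT letters stood in all 8 class II members with a RefSeq window, among them H2-Aa, H2-Eb1 and H2-Oa, while the letters ACAGATG, searched for the X box, stood in those of H2-Aa (232 bases before the start, outside the stretch shown) and H2-Oa and in 5.01% of all windows. The stretches around the CCAAT letters are shown for comparison with the class I stretches. They come from H2-Aa (chr17:34287863-34287931, minus strand), H2-Eb1 (chr17:34305748-34305840, plus) and H2-Oa (chr17:34092232-34092344, plus). Capitals mark the CCAAT letters and, in H2-Oa, the ACAGATG match. In H2-Oa that match began 137 bases before the start and the CCAAT letters 43. In H2-Aa they began 232 and 48 bases before it. These letter matches had no shared distance, which cannot speak to the spacing of the X and Y boxes themselves. Whether either match is an X box was not tested, and an X box with other letters would be missed, in H2-Eb1 too.
H2-Aa: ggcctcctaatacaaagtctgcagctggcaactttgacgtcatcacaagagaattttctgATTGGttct
H2-Eb1: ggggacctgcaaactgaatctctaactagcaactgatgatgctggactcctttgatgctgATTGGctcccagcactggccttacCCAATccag
H2-Oa: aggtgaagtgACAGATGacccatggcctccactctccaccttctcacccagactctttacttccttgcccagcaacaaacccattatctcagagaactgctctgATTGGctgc

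Counted by gene, the kappa B letters stood in 4 of 25 class I and 0 of 8 class II genes with a window. The interferon response letters stood in 8 of 25 and 0 of 8. The shares over all windows, where a gene can have more than 1, were 0.767% and 7.52%. The identity between pairs of the 3 class II stretches was 45.1% to 49.5%, against 81.8% to 97.1% among the 4 class I stretches. The class II stretches were 69, 93 and 113 bases long and not cut by 1 rule, while those of class I had 134 to 136 bases. Gaps counted as differences, so the unlike lengths alone lower the class II identities and the 2 ranges cannot be compared directly.

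Cd74, the invariant chain that fills the class II groove until a peptide is loaded, was the most abundant class II gene. It ranged from 93.6 to 278 RPKM in Control mice (median 125) and from 51.5 to 217 RPKM in HLU mice (median 119), with means of 152 ± 62.0 and 125 ± 47.7 RPKM. The log2 fold change was -0.29 (SE 0.27, exact permutation p 0.336), and 4 of the 8 HLU mice lay below the Control median. Without Control 7 and HLU 4 it was 0.02. Ciita, the transactivator of class II genes, was the lowest of the central members, from 0.567 to 1.88 RPKM in Control mice (median 0.976) and from 0.403 to 1.35 RPKM in HLU mice (median 0.825), or 31 to 227 reads in a library. Its log2 fold change was -0.32 (SE 0.25, exact permutation p 0.208).

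The peptide editing genes were lower in abundance. H2-DMa, H2-DMb1 and H2-DMb2, which make the catalyst that removes the invariant chain fragment, averaged 7.40 ± 3.68 and 5.77 ± 1.91 RPKM, 8.73 ± 2.50 and 7.56 ± 2.58 RPKM, and 4.74 ± 2.27 and 3.90 ± 1.30 RPKM in Control and HLU mice. H2-Ob and H2-Oa, which form its inhibitor, mostly in B cells, averaged 6.94 ± 3.52 and 5.48 ± 2.08 RPKM, and 0.921 ± 0.646 and 0.775 ± 0.296 RPKM. None of the 5 was called, with log2 fold changes between -0.30 and -0.09.

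None of the 3 genes of neither class was called. H2-Ke2, a subunit of a protein folding complex, averaged 9.96 ± 4.30 and 9.24 ± 2.66 RPKM, and H2-Ke6, a steroid dehydrogenase, 6.60 ± 1.86 and 7.05 ± 1.92 RPKM. The pseudogene H2-Pb, which the class rule left unclassified, averaged 0.829 ± 0.603 and 0.667 ± 0.437 RPKM. Their log2 fold changes lay between -0.04 and 0.10. Of the 50-base words of H2-Ke6, 70.5% were shared with the overlapping annotated gene Gm20427.

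Other genes of the 2 pathways were counted from lists. Of 14 genes around class I presentation, among them the immunoproteasome and chaperones, none was called higher and 12 were below 0, where 67.9% of all features were. Irf1, an interferon response factor, was at 9.84 ± 1.36 and 8.94 ± 2.25 RPKM and Psmb8 at 9.42 ± 3.33 and 7.88 ± 2.84 RPKM. Of 10 genes around class II presentation 1 was called lower, against 4.76% of all features, none was called higher, and 8 were below 0, shares near those of all features. The gene called was Spib, a factor of B cells and plasmacytoid dendritic cells, at 11.7 ± 3.95 and 7.78 ± 3.52 RPKM, or -0.65 on the log2 scale (exact permutation p 0.054, adjusted p 0.744). The class II promoter factors Rfx5, Rfxap and Rfxank had log2 fold changes between -0.05 and 0.08. Psmb9, March1 and March8 are not analysed here.

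The markers of the cells that carry these genes were read beside them, and their part in the changes was not tested beyond the covariate fits given here. All 5 B cell markers were detected and below 0, none called, with a summed level of 32.5 to 128 RPKM in Control and 27.6 to 88.5 RPKM in HLU mice. The 6 macrophage markers were also all below 0, none called, at 135 to 298 RPKM and 83.0 to 299 RPKM. Of the dendritic cell markers Siglech was called lower and of the T cell markers Cd3d, at summed levels of 11.1 to 22.1 and 7.37 to 18.5 RPKM, and 6.46 to 20.8 and 5.08 to 13.7 RPKM. Erythroid markers were all below 0, with Hbb-b1 called lower, neutrophil markers had a median log2 fold change of -0.09, and the osteocyte markers Sost, Dmp1, Phex and Mepe were present and above 0, with Mepe called higher. Over all features 67.9% were below 0, 4.76% were called lower and 1.11% were called higher. No marker found in the files was at 0 in all mice. With B cell and macrophage scores as covariates 1 of 36 members, H2-T24, stayed called lower (log2 fold change -0.51, limma p 0.047), against 2.83% of all features. The medians were then -0.19 for class I, -0.05 for class II and -0.06 for all features. With erythroid and neutrophil scores as covariates the medians were 0.00 for class I and 0.04 for class II, 16 of 36 members were below 0, and H2-T24, Nlrc5 and B2m were called lower and H2-Bl, H2-Q2 and Tap2 higher, against 11.0% and 6.38% of all features.

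The ratio of class II to class I within a library does not depend on the scaling between libraries. The log2 ratio of H2-Aa to H2-K1 was 0.48 ± 0.19 in Control and 0.48 ± 0.19 in HLU mice (SD, n = 8 each), a difference of -0.0002 with an exact permutation p of 0.999, and the shifts not rejected by that test ran from -0.20 to 0.20. The log2 ratio of Cd74 to B2m was -3.39 ± 0.79 in Control and -3.41 ± 0.53 in HLU mice, a difference of -0.01 with an exact permutation p of 0.967 and shifts from -0.73 to 0.70 not rejected. The bounds were thus wider for Cd74 and B2m than for H2-Aa and H2-K1. The summed class I heavy chains were 1.28 to 1.90 times the summed class II chains in Control mice and 1.31 to 1.62 times in HLU mice, in RPKM.

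Class I and class II genes varied together between mice. With group means removed, the median Pearson's r over all pairs was 0.57 within class I (231 pairs), 0.64 within class II (55 pairs) and 0.57 between the classes (242 pairs), against 0.038 over all pairs of features. After median-of-ratios rescaling these were 0.49, 0.58, 0.47 and -0.004. These medians are descriptions, since all pairs share the same 16 libraries.

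**Figure D3:**
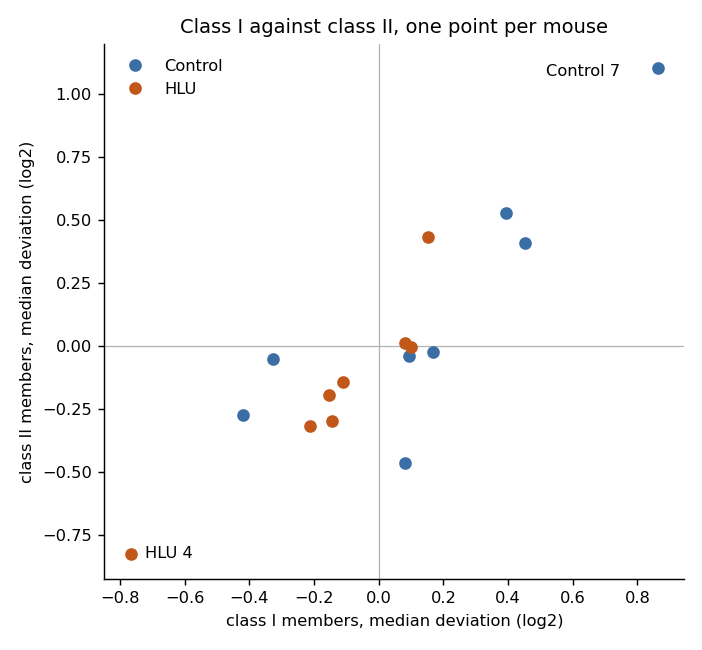
Median deviation of the 22 class I genes (horizontal axis) and of the 11 class II genes (vertical axis) from each gene's mean over the 16 mice, on the log2(RPKM + 0.1) scale, with 1 point per mouse. Control 7 lies highest on both axes, at 0.86 and 1.101, HLU 4 lowest, at -0.77 and -0.83, and the other mice of both groups lie between them.

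In all, 10 pairs of genes were tested with 100000 permutations within groups (two-sided, n = 16, p adjusted over the 10 pairs). H2-K1 and H2-D1 had the closest relation, with r = 0.97 (adjusted permutation p 0.0001) and Spearman's rho = 0.93 (adjusted permutation p 0.00025). H2-K1 and H2-Aa, the main chains of the 2 classes, had r = 0.83 (adjusted permutation p 0.00055) and rho = 0.84 (adjusted permutation p 0.0005). Both relations held without Control 7 and HLU 4, the 2 mice farthest from the median of H2-K1, with r = 0.94 and r = 0.78.

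Within class II H2-Aa varied with Ciita, with r = 0.87 and rho = 0.85 (adjusted permutation p 0.00013 and 0.0005), and with H2-Ab1, with r = 0.79 and rho = 0.78 (adjusted permutation p 0.002 and 0.0023). Its relation with Cd74 had r = 0.68 and rho = 0.67 (adjusted permutation p 0.0039 and 0.014). It did not pass without Control 3 and Control 7, the 2 mice farthest from the median of H2-Aa (r = 0.47, adjusted permutation p 0.096). With Control 7 and HLU 4 left out instead, r was 0.60 (adjusted permutation p 0.038). Without Control 3 and Control 7 the r of H2-Aa was 0.78 with Ciita and 0.60 with H2-Ab1. In class I H2-K1 followed Tap1, with r = 0.80 and rho = 0.85 (adjusted permutation p 0.0001 and 0.0002), and Nlrc5, with r = 0.54 and rho = 0.58 (adjusted permutation p 0.027 and 0.022). The last did not pass after median-of-ratios rescaling (r = 0.32, adjusted permutation p 0.238).

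Between H2-K1 and its light chain B2m there was no such relation, with r = -0.0034 and rho = 0.06 (adjusted permutation p 0.991 and 0.832), r being -0.43 in Control and 0.61 in HLU mice. With the B cell marker Cd79a, part of the B cell receptor, H2-Aa had r = 0.64 and rho = 0.77 (adjusted permutation p 0.0048 and 0.0005), and without Control 3 and Control 7 r was 0.56 (adjusted permutation p 0.051). With the macrophage marker Csf1r, the receptor for macrophage growth factor, r was 0.44 and rho 0.46 (adjusted permutation p 0.066 and 0.089).

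**Figure D4:**
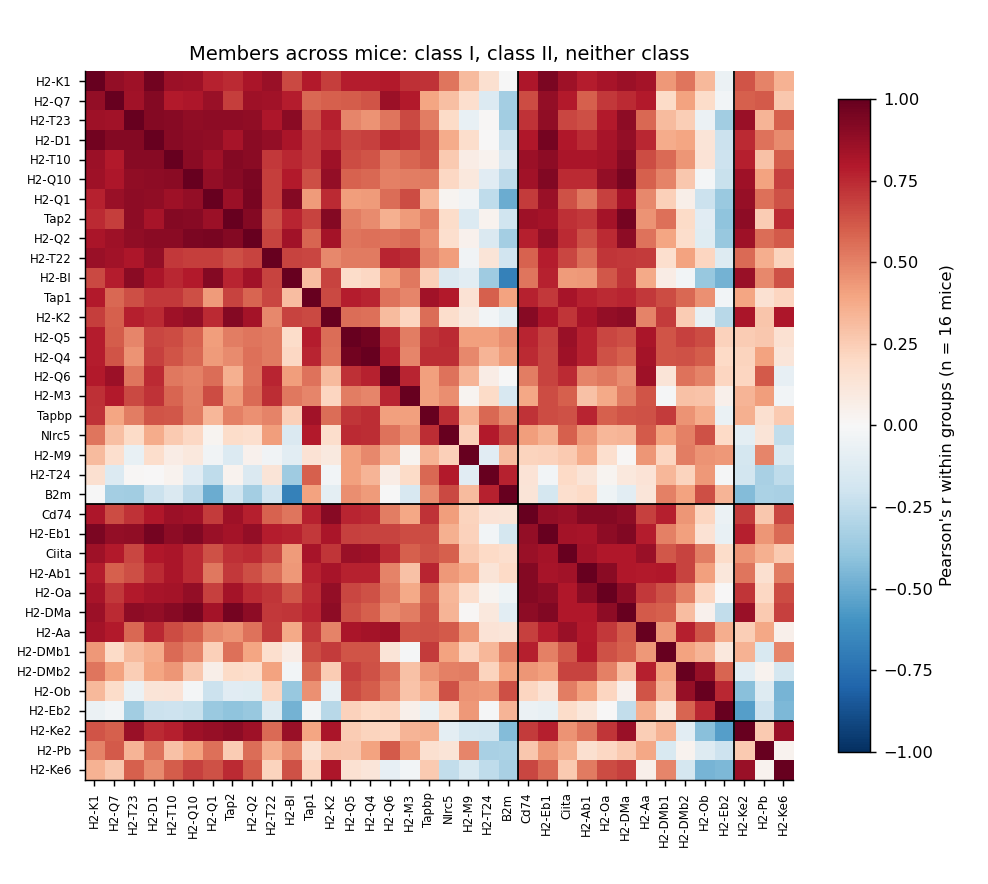
Pearson's r between each pair of the 36 genes tested over the 16 mice after removal of the group means, from -1 (blue) to 1 (red), with genes ordered by class and, within a class, by their median r with it. The class I and class II blocks share most of their red. B2m, H2-T24, H2-M9 and Nlrc5 in class I and H2-Eb2 and H2-Ob in class II have the lowest medians.

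Most members varied with the other genes of their class, though not with those alone. The median r with the other genes of the class was over 0.5 for 18 of 22 class I and 9 of 11 class II genes, with the highest values for H2-K1 (0.79) and Cd74 (0.82). With the genes of the other class the median r was 0.81 for H2-K1 and 0.72 for Cd74. The values that follow are again those within the class. The median r was -0.14 for B2m, 0.03 for H2-T24, 0.11 for H2-M9 and 0.37 for Nlrc5, and in class II 0.11 for H2-Eb2 and 0.38 for H2-Ob. A low median did not mean a low r with every gene. For Nlrc5 r ran from -0.15 with H2-Bl to 0.80 with Tap1, with 0.79 for H2-T24 and 0.66 for B2m. B2m and H2-T24 had r = 0.77 with each other. Outside the members, the 5 genes of at least 2 RPKM nearest to H2-Aa, among 11368, were Icosl (r = 0.88), Shisa5 (0.87), Arhgef18 (0.83), 9430008C03Rik (0.81) and Tcf7 (0.81). Those nearest to H2-K1 were Map4k2 (0.94), Cables2 (0.93), Trappc3 (0.92), Shisa5 (0.91) and Sun1 (0.91).

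B2m and H2-T24 instead moved with a measure of the whole library, the share of the RPKM divisor that the reads on listed features add up to. This share was 81.4% to 93.2% in Control mice (median 90.1%) and 76.3% to 92.2% in HLU mice (median 86.6%), a difference in means of -3.84 percentage points with an exact permutation p of 0.133. Of 12 members set beside it, with 100000 permutations within groups and p adjusted over the 12, B2m had r = 0.91 and rho = 0.90 (adjusted permutation p 0.00012 and 0.00036), H2-T24 r = 0.84 and rho = 0.83 (adjusted permutation p 0.00096 and 0.003), and Nlrc5 r = 0.70 and rho = 0.72 (adjusted permutation p 0.022 and 0.020). With HLU 6 and HLU 7 left out, which lay farthest from the median of this percentage, the r values were 0.85, 0.78 and 0.53. None of the other 9 passed, with r from -0.14 for H2-Eb1 to 0.46 for Tap1. Among the tested members outside these 12, given with no test, r reached 0.72 for H2-Ob and -0.58 for H2-Bl. This relation was looked for after the values had been seen.

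**Figure D5:**
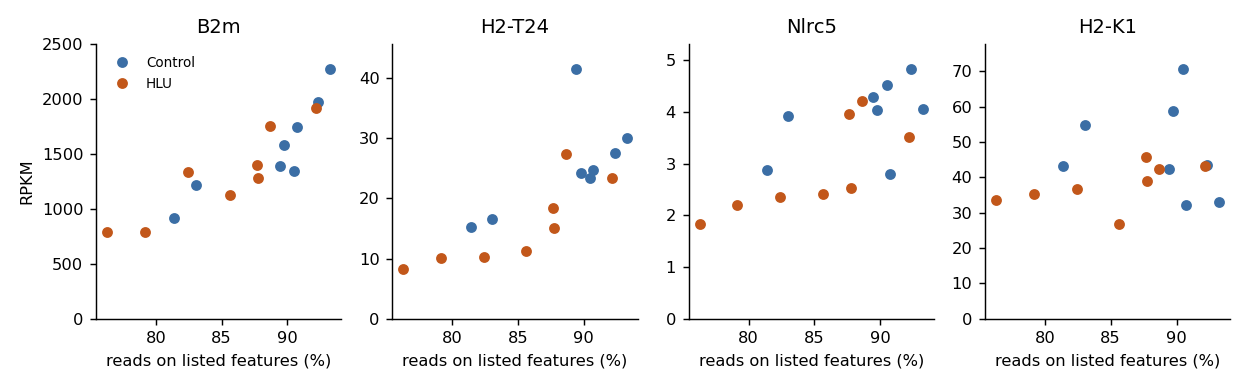
Transcript abundance in RPKM (vertical axes, from 0) of B2m, H2-T24, Nlrc5 and H2-K1 against the percentage of the RPKM divisor found on listed features (horizontal axis), with 1 point per mouse. The mice with the lowest percentages have the lowest B2m, down to 792 RPKM, and the mouse with the highest has 2273 RPKM, while H2-K1 shows no such order.

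Once this percentage entered the fit as a covariate, B2m had a log2 fold change of 0.05 (limma p 0.690), that of H2-T24 -0.40 (limma p 0.026) and that of Nlrc5 -0.27 (limma p 0.090). The members called lower were then H2-T24, H2-M3 and H2-Q7, against 3.22% of all features.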

How the data were processed

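The authors prepared unstranded libraries with the TruSeq RNA kit (v2), sequenced them on a HiSeq, aligned reads with TopHat2 and deposited RPKM values per gene symbol and mouse. Per the labels the build was mm9, and DESeq2 was also used; the annotation, counter and gene lengths are not given in the sources used here. A count test cannot be applied to RPKM, so limma 3.58.1 (R 4.3.3) was fitted to log2(RPKM + 0.1) over the 16973 features that averaged 0.5 RPKM or more, with trended variance and Benjamini-Hochberg adjustment. A fold change on this scale understates that of low genes. For single members all 12870 splits of the 16 mice into 8 and 8 were enumerated (exact permutation, two-sided), and the smallest p possible is 0.000155 (Python 3.11.15, numpy 2.4.6, scipy 1.17.1, pandas 2.3.3). Figures used matplotlib 3.10.9.

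Whole reads were recovered within 0.1 read for all 16973 features by finding each library's divisor and each gene's length. Limits set by reads cover counting error only. On simulated data with 200 features changed 2-fold, limma recovered 175 at the unadjusted rule, with 816 false calls, and 130 at the adjusted rule, with 14 false calls. GRCm38 tables were used for promoters, gene order and shared words only.

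The members and gene lists were chosen with earlier results of these data known. Every tested member is named, with per-mouse ranges for 10 central genes and any gene called. Each mouse had its own library, and separate cages or days are not stated. The paper gives 8 libraries per lane but not which mice shared a lane. Lane was therefore not examined and may coincide with group. Alternatives covered the pseudocount, filter, scaling, variance model, recovered reads (voom), marker scores, a replicate block and single mice. Same-numbered mice were not treated as pairs. One result on a listed gene is not reported here.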

Additional observations from a re-analysis of the deposited data

Results flagged for a closer look

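Within each group of 8 the highest and lowest mouse of the 36 tested genes was compared with its nearest neighbour by Dixon's ratio. The ratio was taken on RPKM, not on the log2 scale. In 72 groups 10 values passed the 95% critical value. A chance rate of about 1 group in 20 holds for independent groups of normally distributed values. The genes were measured in the same mice and varied together, so the 10 values are not independent and cannot be set against that rate. Control 7 stood above the other Control mice for H2-Ab1 (52.3 RPKM, next 32.8), H2-K2 (7.91 RPKM, next 4.21), H2-Oa (2.32 RPKM, next 1.29) and H2-T10 (2.27 RPKM, next 1.36). HLU 4 stood below the other HLU mice for H2-D1 (53.9 RPKM, next 83.3), H2-Ke2 (3.43 RPKM, next 7.98), H2-Q2 (0.027 RPKM, next 1.02) and H2-T10 (0.343 RPKM, next 0.767). Control 8 stood above its group for H2-M9 (4.47 RPKM, next 2.34), and HLU 5, one of the 2 smallest libraries, for H2-Q6 (13.6 RPKM, next 10.6). The counts and medians without Control 7 and HLU 4 stand in the report.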

How the results depend on the processing

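The 5 members called lower (4 of class I, 1 of class II) stood against 4.76% of all features. With array weights they became 11 (10 of class I), against 7.12% of all features. Without the 2 smallest libraries they became 12 (10 and 2), against 5.08%. They became 1 (1 and 0) with B cell and macrophage scores, against 2.83%, or without Control 7 and HLU 4, against 2.78%. With erythroid and neutrophil scores 3 were called lower (class II 0), against 11.0%, and 3 higher, against 6.38%. The count was also 3 (class II 0) with median-of-ratios rescaling (2.33% of all features), quantile normalization (2.14%) or the share of reads on listed features as a covariate (3.22%). The last covariate and the 2 left-out pairs were chosen after seeing the data. The 808 features lower and 188 higher became 480 lower with B cell and macrophage scores, 1873 and 1083 with erythroid and neutrophil scores, 395 and 381 with median-of-ratios rescaling, 364 and 460 with quantile normalization and 471 lower without Control 7 and HLU 4; the count higher was 106 at a minimum of 2 RPKM, 391 with no filter and 108 without the 2 smallest libraries. The median of all features moved from -0.10 to -0.0121 with median-of-ratios rescaling and 0.00104 with quantile normalization. With erythroid and neutrophil scores the log2 fold changes of Cd74 (0.15), Ciita (0.0442), H2-D1 (0.0626) and H2-Eb1 (0.0901) reversed, as did B2m with the listed share (0.0487) and Cd74 without Control 7 and HLU 4 (0.0198). Without those 2 mice the Cd74 to B2m difference was 0.29 (exact permutation p 0.333) and r of H2-K1 with B2m 0.0203. The relations of H2-Aa with Cd74 (0.47) and Cd79a (0.56) and of H2-K1 with Nlrc5 (0.32, rescaled) fell below the threshold. Causes were not tested.

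Leaving out each mouse gave 2 to 11 members lower and 0 higher, 2 to 9 of class I, 0 to 2 of class II, 471 to 1385 features lower, 117 to 363 higher, medians of -0.44 to -0.20 (class I), -0.34 to -0.15 (class II) and -0.13 to -0.07 (all features), and ratio differences of -0.046 to 0.0487 (H2-Aa to H2-K1) and -0.16 to 0.15 (Cd74 to B2m). Same-numbered mice correlated at -0.17 to 0.51, 3 of 8 over 0.1 and 1 best with its own number. A pairing by number was thus not shown, though so few mice cannot exclude it. With the replicate block 4 members were called lower, against 4.95% of all features. H2-Q7 was added, and Nlrc5 (limma p 0.056) and Tap1 (limma p 0.069) were lost. With no filter on low values 7 members were called lower, against 3.54% of all features. The 2 added were H2-M10.3 and H2-M10.4, which had 6 and 13 reads over all mice.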
